A study of Mus musculus with 9 samples.

Results

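Gene expression particular to fibrillar collagen I was described in D2.OR mouse mammary tumor cells in 3D culture. The 3 arrays titled fibrillar collagen were set against the mean of the group means of non-fibrillar collagen and Matrigel. A gene was a member when all 3 fibrillar values lay above, or all lay below, the 6 values of both other groups. Of 19938 genes, 1340 met this rule: 596 were above and 744 below. The rule reads the same values as the tests below, so the calls describe these arrays and are not independent support for membership.

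D2.OR is an established mouse line, a model of tumor cells that stay dormant once they have spread. Each group had 3 Affymetrix arrays of total RNA. By their titles the groups differ in the gel: polymerised collagen fibres, collagen I that had not formed fibres, or Matrigel, a basement membrane extract. The labels conflict for Matrigel: the growth label of those arrays names non-fibrillar collagen I, and the design text lists collagen gels alone. Later accession numbers set these 3 arrays apart as well, so any batch and the matrix cannot be told apart here, and results are given with and without them. Whether replicates were separate cultures is not stated, and the p-values therefore cover the scatter of these samples alone, possibly technical scatter.

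Epithelial identity and other cell types were read from marker lists. The mean of 8 mammary epithelial markers was 9.09 to 9.32 log2 units on the 9 arrays, although 2 of the 8 were below 6 on average. Macrophage, endothelial, adipocyte and lymphocyte markers were mostly dim. On average 7 of 8, 4 of 5, 4 of 5 and 4 of 4 were below 6 log2 units. The macrophage marker Cd68 was not dim, at a mean of 8.36. Fibroblast markers had a mean of 6.47 to 6.73 per array and were mixed, with 2 of 6 below 6 and Pdgfra at 10.80. None of the members of these lists lay beyond all 6 other arrays.

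Cells sense collagen through integrins and discoidin domain receptors, and laminins of the basement membrane through other integrins and dystroglycan. Interferons act through cell-surface receptors and JAK kinases on transcription factors that bind interferon-stimulated response elements, and so induce antiviral effectors such as the Ifit, Oas and Gbp proteins; breast tumor cells can keep part of this programme switched on without infection. Fatty acid synthase and acetyl-CoA carboxylase, which act under the transcription factor encoded by Srebf1, make the lipids of milk in the gland and of membranes in tumor cells.

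Most of the largest decreases among called members were in interferon-induced genes, and the largest increase was in the glycosyltransferase gene Large2. Of 29 interferon response genes 15 were lower and below all 6 other arrays, of 19 fatty acid synthesis genes 4 were higher and above them, and of 19 basement membrane genes 2 were. Members made up 6.72% of all genes, 2.99% above and 3.73% below. A limma test of the same contrast (adjusted p at most 0.05, Benjamini-Hochberg over all genes) called 581 genes, 2.91% of those tested: 207 higher (1.04%) and 374 lower (1.88%). At an unadjusted p of at most 0.05 it was 17.2% of genes. Calls and membership coincided in 438 genes, 2.2% of all: 149 higher (0.747%) and 289 lower (1.45%). The other 143 calls overlapped another group, and 902 members were not called. Most differences were small, with a median of 0.24 log2 units in the 149 genes and -0.28 in the 289, and 2 and 32 of them reached 0.5. Of the 596 genes above, 225 (37.8%) had a mean below 6 log2 units, against 59 of 744 (7.93%) below and 44.6% of all genes.

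**Figure D1:**
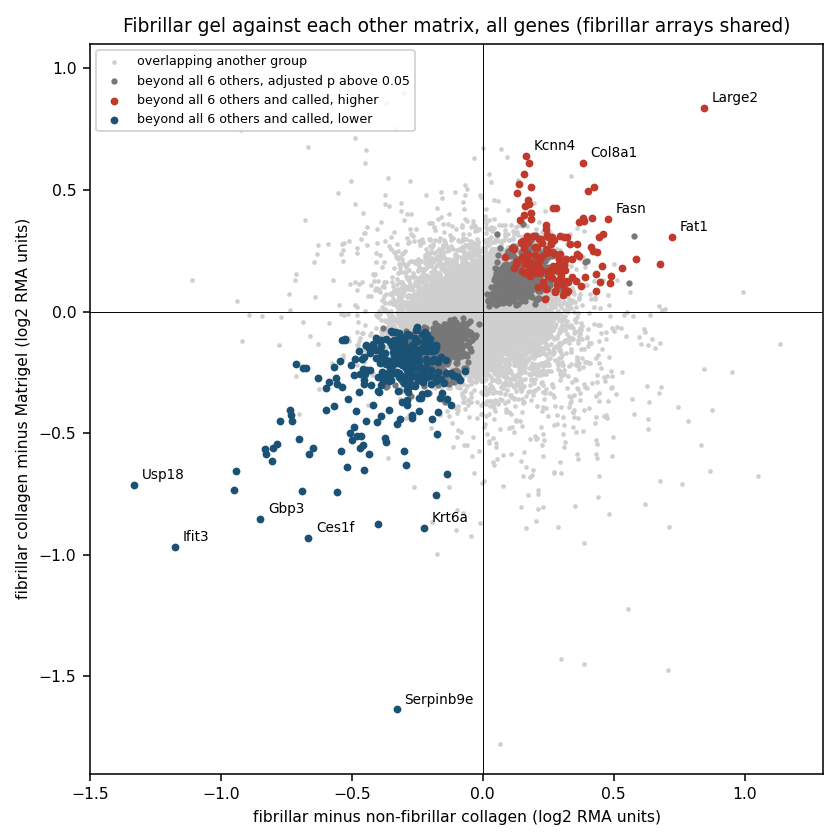
Log2 difference of fibrillar minus non-fibrillar collagen (x axis) and fibrillar collagen minus Matrigel (y axis) for each of 19938 genes; red and blue points are the 149 higher and 289 lower genes that were called and lay beyond all 6 other arrays, dark grey points lay beyond them without a call. Both axes use the same 3 fibrillar arrays; Large2 stands alone at the upper right, and Usp18, Ifit3 and Serpinb9e lie farthest out among the decreases.

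The called members often differed between the other 2 matrices too. Non-fibrillar collagen and Matrigel differed in 45 of the 149 higher genes (30.2%) and in 81 of the 289 lower genes (28.0%), where 13.8% of all genes did. Against non-fibrillar collagen alone, in a fit of 6 arrays without Matrigel, 103 of the 149 and 221 of the 289 were called, where 6.4% of all genes were (2.71% higher and 3.69% lower). In the fit of 9 arrays, 121 of the 149 and 260 of the 289 were called against non-fibrillar collagen (8.85% of all genes, 3.52% higher and 5.33% lower). Against Matrigel 83 and 122 were called (3.82% of all genes, 1.45% higher and 2.37% lower). These comparisons share the fibrillar arrays; 55 and 94 genes passed in both. At the limit of the rule, Kbtbd2 and Col22a1 were just inside on the upper side, at 0.04 and 0.03 log2 units, and Tcp11l1 and Ifna5 just outside, at 0.09 and 0.15. On the lower side Dmac1 and Polr2g were just inside, at -0.20 and -0.16, and Pdxdc1 and Uqcrfs1 just outside, at -0.09 and -0.14.

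These limits apply to these counts. Calls fell to 298, 212 or 150 without fibrillar replicate 1, 2 or 3, to 364, 264 or 292 without a non-fibrillar replicate and to 333, 350 or 313 without a Matrigel replicate. Quantile normalization again moved the split of calls from 207 higher and 374 lower to 247 and 247, and that of members to 679 and 564. Genes that were both went from 149 higher and 289 lower to 185 and 180. The main fit ignores replicate number. With it as a block, 472 of the 581 calls stayed.

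The strongest decreases were in genes induced by interferon. Ifit3 was at 6.91, 6.99 and 6.45 in fibrillar collagen, 7.83, 8.04 and 8.01 in non-fibrillar collagen and 7.71, 7.59 and 7.95 in Matrigel, so that no fibrillar array reached any other. Ifit3, an antiviral RNA-binding protein, was 2.1-fold lower (-1.07 ± 0.119 SE, adjusted p = 0.0032). Its neighbour and partner Ifit1 was at 7.99, 7.80 and 7.51, 8.67, 8.76 and 8.72 and 8.51, 8.42 and 8.56 in the same order, 1.79-fold lower (-0.84 ± 0.087 SE, adjusted p = 0.0026). Usp18 was at 8.25, 7.81 and 7.97 in fibrillar collagen, 9.15, 9.34 and 9.52 in non-fibrillar collagen and 8.61, 8.81 and 8.74 in Matrigel. Usp18 strips ISG15, an interferon-induced protein tag, and damps interferon signalling; it was 2.03-fold lower (-1.02 ± 0.103 SE, adjusted p = 0.0026), with both other groups apart from each other as well (non-fibrillar minus Matrigel 0.62, 95% interval 0.35 to 0.88).

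Gbp3 and Irf7 fell against both matrices, Gbp3 by almost equal amounts. Gbp3 was at 7.64, 7.48 and 7.49 in fibrillar collagen, 8.29, 8.41 and 8.47 in non-fibrillar collagen and 8.37, 8.53 and 8.27 in Matrigel. The nearest arrays of Gbp3, an interferon-induced GTPase, were 0.63 log2 units apart, the widest gap among the decreases, and its differences were -0.85 against non-fibrillar collagen and -0.85 against Matrigel (-0.85 ± 0.066 SE, adjusted p = 0.002). The interferon regulator Irf7, which drives type I interferon genes, was at 7.44, 7.29 and 7.40, 8.24, 8.22 and 8.49 and 8.0, 8.15 and 7.94 in the fibrillar gel, non-fibrillar collagen and Matrigel (-0.80 ± 0.071 SE, adjusted p = 0.0026). The groups of Irf7 did not overlap, and non-fibrillar collagen was the highest.

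Further members of this response fell by similar amounts. Ifi202b, a DNA-binding member of the p200 family, was at -0.71 ± 0.064 SE, the chaperone-like Rtp4 at -0.71 ± 0.065, the nucleic acid sensor Zbp1 at -0.70 ± 0.096 and the Oas-like Oasl2 at -0.62 ± 0.075, with adjusted p from 0.0026 to 0.0087. Rsad2, the antiviral enzyme viperin, was less even: 7.81, 7.34 and 7.43 in the fibrillar gel, 8.45, 8.23 and 7.98 in non-fibrillar collagen and 8.50, 8.05 and 8.25 in Matrigel (-0.71 ± 0.134 SE, adjusted p = 0.027). It was no longer called without fibrillar replicate 2 or 3, non-fibrillar replicate 2 or Matrigel replicate 1 or 3, with adjusted p up to 0.113. Without Matrigel it was at 0.0527, or 0.0234 with replicate number as a block. No pairing of replicates is stated, and that block was chosen after the data were seen. Without Matrigel the other interferon-induced genes with values above stayed below 0.05, from 0.0049 for Gbp3 and Ifi202b to 0.021 for Zbp1.

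**Figure D2:**
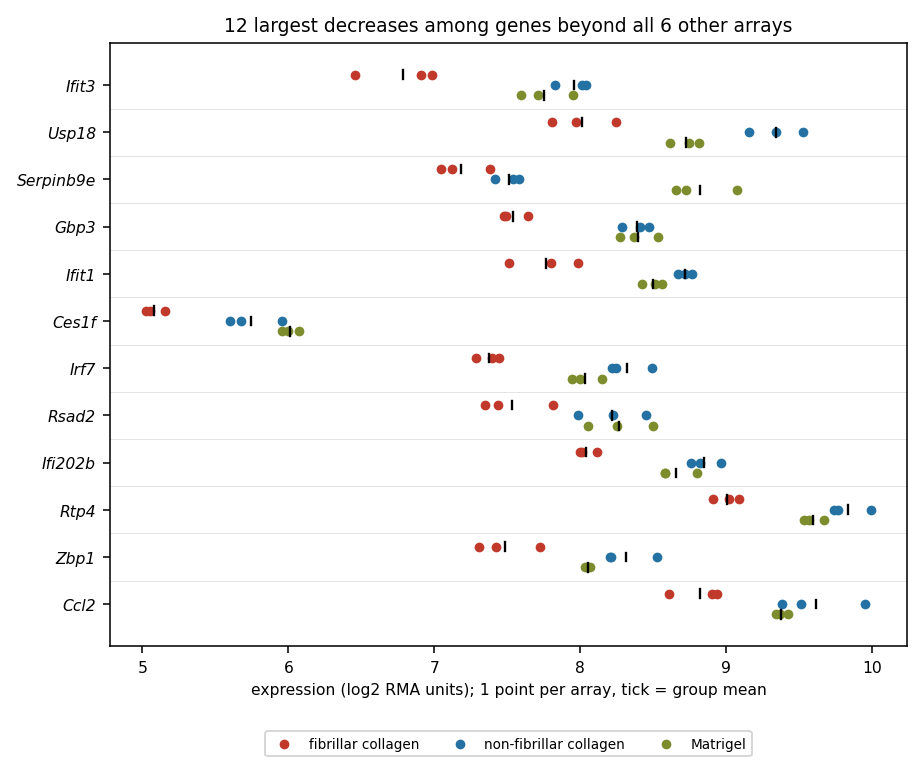
Log2 expression on each of the 9 arrays for the 12 largest decreases among called genes beyond all 6 other arrays; points are arrays coloured by matrix and ticks are group means. The 3 fibrillar arrays are left of all others in each of the 12 genes, with Serpinb9e close to non-fibrillar collagen and far from Matrigel.

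Of 29 measured interferon response genes, 17 were lower, 0 were higher and 12 were not called; 18 lay below all 6 other arrays and 15 were both. The median difference was -0.33 log2 units against 0.0040 over all genes, with -0.44 against non-fibrillar collagen and -0.30 against Matrigel. At an unadjusted limma p of at most 0.05, 26 of the 29 were lower and 0 higher, where 17.2% of all genes passed. The differences ran from -1.07 to -0.046 log2 units, so all 29 were below 0. Without Matrigel 18 were lower and 0 higher, where 3.69% of all genes were lower. Over the alternatives and left-out arrays the median lay between -0.44 and -0.31. By role, the transcription regulators Irf7 and Irf9 (-0.26) fell, while Stat2 was at -0.15 (adjusted p = 0.113) and Irf1 at -0.17 (adjusted p = 0.262). Among RNA sensors Ifih1, which encodes MDA5, fell (-0.43, adjusted p = 0.014), and Ddx58, which encodes RIG-I, was at -0.16 (adjusted p = 0.106).

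Not all effectors were called. Xaf1, which promotes cell death (-0.61 ± 0.066 SE, adjusted p = 0.0031), and the restriction factor Bst2 (-0.35 ± 0.066 SE, adjusted p = 0.026) fell with the Ifit genes, whereas Oas2, which makes the messenger that activates RNase L, was at -0.05 (adjusted p = 0.626) and the kinase Eif2ak2 at -0.22 (adjusted p = 0.157). Oas1a and Mx1 were called lower without lying below all other arrays (-0.38 and -0.28). Several of these names, and the receptors next, were chosen after their values were seen. The receptor genes were not called: Ifnar1 was at -0.05, Ifnar2 at -0.06, Ifngr1 at -0.12 and Ifngr2 at -0.16 log2 units, with adjusted p from 0.0992 to 0.588. Interferon beta, Ifnb1, was dim, at 4.38 to 4.85 on the 9 arrays with a difference of -0.01. Within the Ifit, Oas, Gbp and p200 families a probe set may pick up close copies, which leaves single members uncertain.

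Antigen presentation through MHC class I, which interferon also raises, moved in part. Of 11 measured genes 3 were lower and beyond all other arrays, 0 higher, with a median of -0.14. The immunoproteasome subunits Psmb10 (-0.41 ± 0.066 SE, adjusted p = 0.014) and Psmb8 (-0.33 ± 0.059 SE, adjusted p = 0.021) and the peptide-trimming Erap1 (-0.19 ± 0.038 SE, adjusted p = 0.033) fell; Tap1 was at -0.25 (adjusted p = 0.0672) and B2m at -0.17 (adjusted p = 0.193). Psmb10 lost its call without fibrillar replicate 3 (adjusted p = 0.0651). Psmb8 lost it without fibrillar replicate 2 or 3 or Matrigel replicate 2 or 3 (up to 0.0921). Erap1 lost it whichever array was left out (up to 0.114), without Matrigel (0.143) and after quantile normalization again. Without Matrigel Psmb10 was called (0.0429), but not with a replicate block (0.0509).

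Promoters of the lower genes were searched for the core of the interferon-stimulated response element, spelled GAAA, any pair of bases, then GAAA, and read on both strands, in RefSeq windows of 250 bases before to 50 after the annotated start (mouse build GRCm38.p6). A window was given for 15614 genes, and 3.89% of them held the motif. It was in 27 of the 231 called lower members with a window (11.7%), in 6 of 119 called higher members (5.04%) and in 11 of 21 interferon response genes (52.4%). Among called lower members outside the interferon response list it was in 21 of 219 (9.59%), among them Gbp2b, Trim30a, Gbp7, Irgm1, Serpinb9 and Ifi203. A match is a description of the letters, not of a bound site. The 250 bases before the start are shown for the 4 of the 12 largest decreases that held a match; windows were given for 7 of the 12, and those of Serpinb9e, Irf7 and Ifi202b held none. The sequences are written 5′ to 3′ on the gene's strand, with matches in capitals; paired TTTC runs are the motif on the opposite strand.
Ifit3 (chr19:34583279-34583528, plus strand): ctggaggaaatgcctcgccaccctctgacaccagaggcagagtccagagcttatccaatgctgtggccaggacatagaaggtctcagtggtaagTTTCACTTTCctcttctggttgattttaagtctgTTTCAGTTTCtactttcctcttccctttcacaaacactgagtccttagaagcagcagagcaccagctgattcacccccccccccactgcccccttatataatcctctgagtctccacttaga
Gbp3 (chr3:142559794-142560043, plus strand): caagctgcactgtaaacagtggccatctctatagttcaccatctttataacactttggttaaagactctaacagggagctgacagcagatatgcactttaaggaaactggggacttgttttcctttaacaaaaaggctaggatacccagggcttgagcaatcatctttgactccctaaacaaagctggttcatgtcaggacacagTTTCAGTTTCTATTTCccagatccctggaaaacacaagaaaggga
Ifit1 (chr19:34640639-34640888, plus strand): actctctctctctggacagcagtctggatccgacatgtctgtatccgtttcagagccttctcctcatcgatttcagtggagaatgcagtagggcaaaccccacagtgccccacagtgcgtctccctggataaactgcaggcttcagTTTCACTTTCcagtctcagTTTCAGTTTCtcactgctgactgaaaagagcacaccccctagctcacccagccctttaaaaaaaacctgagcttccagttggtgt
Rsad2 (chr12:26456453-26456702, minus strand): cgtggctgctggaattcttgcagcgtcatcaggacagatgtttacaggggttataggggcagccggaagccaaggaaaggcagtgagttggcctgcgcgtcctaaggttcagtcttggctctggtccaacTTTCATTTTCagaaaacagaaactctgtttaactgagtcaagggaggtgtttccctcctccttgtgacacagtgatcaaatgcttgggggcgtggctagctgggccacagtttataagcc
Between the nearest match and the start lay 112 bases in Ifit3, 29 in Gbp3, 75 in Ifit1 and 110 in Rsad2. Other letter strings were searched the same way: the E-box CACGTG was in 10.8% of lower and 10.1% of higher called members against 9.5% of all genes, the AP-1 site TGACTCA in 3.9% and 3.36% against 5.41%, the sterol element core TCACNCCA in 4.33% and 3.36% against 4.6%, and the TEAD site GGAATG in 13.9% and 18.5% against 15.1%. In the 21 interferon response genes with a window, the E-box was in 1, the AP-1 site in 4, the sterol element core in 2 and the TEAD site in 1.

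Decreases outside the interferon response list were of several kinds. Ces1f was at 5.15, 5.05 and 5.02 in fibrillar collagen, 5.60, 5.67 and 5.96 in non-fibrillar collagen and 6.07, 5.95 and 6.0 in Matrigel. Ces1f, a carboxylesterase, was a clear decrease (-0.80 ± 0.073 SE, adjusted p = 0.0026) although dim, and every fibrillar array was below the 6 others, while both other groups overlapped each other. The chemokine Ccl2, which draws monocytes, was at 8.61, 8.90 and 8.94, 9.38, 9.95 and 9.51 and 9.34, 9.37 and 9.42 in the fibrillar gel, non-fibrillar collagen and Matrigel, 1.6-fold lower (-0.68 ± 0.117 SE, adjusted p = 0.019). Its call was lost without any 1 of the fibrillar arrays (adjusted p up to 0.0657). Ccl5, which attracts T cells, fell as well (-0.38 ± 0.055 SE, adjusted p = 0.012), with its call lost without fibrillar replicate 3 (0.0602). Among 29 chemokine and cytokine genes 3 were lower, 2 of them beyond all other arrays, and 1 higher: the macrophage growth factor Csf1 (0.30 ± 0.045 SE, adjusted p = 0.012), whose call was lost without fibrillar replicate 2 (0.053).

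Some members met the rule narrowly against 1 matrix and widely against the other. Serpinb9e, a serpin of clade B, was at 7.38, 7.05 and 7.12 in the fibrillar gel, 7.54, 7.58 and 7.41 in non-fibrillar collagen and 9.07, 8.72 and 8.66 in Matrigel: -0.33 against non-fibrillar collagen and -1.64 against Matrigel (-0.98 ± 0.10 SE, adjusted p = 0.0026). The keratin Krt6a was alike, at -0.22 against non-fibrillar collagen and -0.89 against Matrigel (-0.56 ± 0.045 SE, adjusted p = 0.002), as was Inhba, a subunit of activins (-0.18 against non-fibrillar collagen and -0.50 against Matrigel; -0.34 ± 0.052 SE, adjusted p = 0.012). Without Matrigel none of these 3 was called (adjusted p = 0.098, 0.0594 and 0.168), and Inhba lost its call without fibrillar replicate 2 or 3. Sdc1, a heparan sulfate proteoglycan of epithelia (-0.33 ± 0.036 SE, adjusted p = 0.0031), and the retinaldehyde dehydrogenase Aldh1a3, a gene of luminal mammary cells (-0.42 ± 0.042 SE, adjusted p = 0.0026), fell against both. Aldh1a3 was at 7.76, 7.83 and 7.79, 8.41, 8.25 and 8.33 and 8.10, 8.06 and 8.14, with Matrigel between the collagens. Gpx1, the glutathione peroxidase, was at 10.75, 10.63 and 10.67, 10.99, 11.05 and 11.09 and 11.10, 11.07 and 11.10 (-0.38 ± 0.038 SE, adjusted p = 0.0026).

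Large2 was the largest increase, and of all genes it had the widest gap between the nearest fibrillar and other arrays. Large2 was at 9.35, 9.28 and 9.41 in fibrillar collagen, 8.53, 8.45 and 8.53 in non-fibrillar collagen and 8.48, 8.50 and 8.55 in Matrigel. Its nearest arrays were 0.73 log2 units apart, it was 1.79-fold higher (0.84 ± 0.041 SE, adjusted p = 6.5e-05), and non-fibrillar collagen minus Matrigel was -0.01 (95% interval -0.12 to 0.10). Large2 extends the sugar chain of alpha-dystroglycan by which that receptor binds laminin. Of 13 measured genes of dystroglycan and its glycosylation it alone was called; the core protein gene Dag1 was at 0.09 (adjusted p = 0.444) and Utrn, which links dystroglycan to actin, at 0.17 (adjusted p = 0.0882).

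The next increases were in matrix, cadherin and membrane genes. Fat1 was at 10.04, 10.01 and 9.92 in fibrillar collagen, 9.38, 9.21 and 9.21 in non-fibrillar collagen and 9.58, 9.75 and 9.72 in Matrigel. Fat1 and Fat4 are very large atypical cadherins of cell contacts; their differences were 0.72 against non-fibrillar collagen and 0.31 against Matrigel for Fat1 (0.51 ± 0.055 SE, adjusted p = 0.003), and 0.68 against non-fibrillar collagen and 0.20 against Matrigel for Fat4 (0.44 ± 0.052 SE, adjusted p = 0.0045). In both, Matrigel lay between the collagens. Col8a1, a chain of a network-forming collagen, was higher against both (0.38 against non-fibrillar collagen and 0.61 against Matrigel; 0.50 ± 0.049 SE, adjusted p = 0.0026), here with Matrigel lowest. The sialyltransferase St3gal4 was at 8.86, 8.90 and 8.86, 8.40, 8.44 and 8.50 and 8.24, 8.44 and 8.41 in the fibrillar gel, non-fibrillar collagen and Matrigel (0.47 ± 0.049 SE, adjusted p = 0.0026). The RNA helicase Ddx41, which also takes part in sensing DNA, was at 9.13, 9.09 and 9.15, 8.67, 8.72 and 8.78 and 8.69, 8.52 and 8.67 (0.45 ± 0.047 SE, adjusted p = 0.0026). For St3gal4 and Ddx41 no array of either other group reached the fibrillar values.

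Receptors, a channel and a transporter followed. Igf2r, which clears the growth factor IGF2 and carries lysosomal enzymes, was 0.59 against non-fibrillar collagen and 0.21 against Matrigel (0.40 ± 0.047 SE, adjusted p = 0.0045). Lifr, the receptor of leukemia inhibitory factor, was 0.18 against non-fibrillar collagen and 0.61 against Matrigel (0.39 ± 0.047 SE, adjusted p = 0.0048), and the potassium channel Kcnn4 0.17 against non-fibrillar collagen and 0.64 against Matrigel (0.40 ± 0.038 SE, adjusted p = 0.0026). Without Matrigel, Igf2r passed (adjusted p = 0.0041) and Lifr and Kcnn4 did not (0.0693 and 0.0784). The amino acid transporter Slc43a1 was higher (0.40 ± 0.075 SE, adjusted p = 0.027) and lost its call without any 1 fibrillar array or non-fibrillar replicate 2 (up to 0.102). Sh3pxd2a, the scaffold Tks5 of matrix-degrading invadopodia, was higher (0.31 ± 0.046 SE, adjusted p = 0.012) with a loss without fibrillar replicate 2 or 3 (up to 0.0559). The olfactory receptor Olfr830 met the rule for wide gaps at the dim level of 3.75, 3.75 and 4.10 against 3.40 to 3.51; it lost its call in 7 of 9 refits without 1 array, those without fibrillar replicate 2 or any array of either other matrix (up to 0.0716), and without Matrigel (0.0747).

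**Figure D3:**
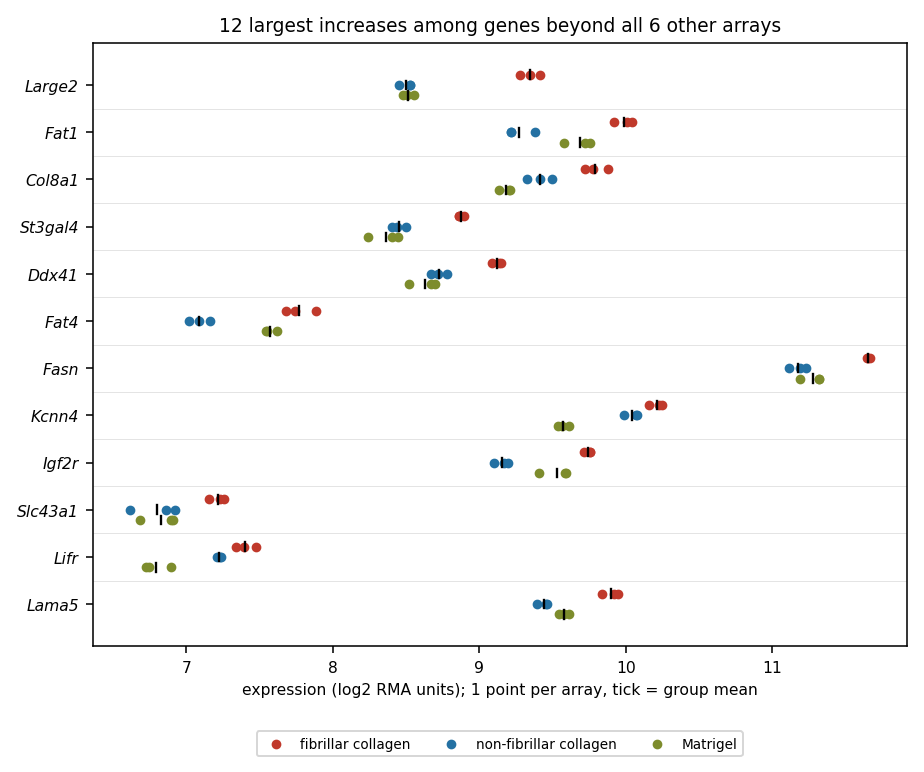
Log2 expression on each of the 9 arrays for the 12 largest increases among called genes beyond all 6 other arrays; points are arrays coloured by matrix and ticks are group means. The fibrillar arrays are right of all others in each gene, with Large2 the most separate and Kcnn4 and Fat4 close to 1 of the other groups.

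Some genes of fatty acid synthesis were higher in the fibrillar gel. Fasn was at 11.64, 11.66 and 11.67 in fibrillar collagen, 11.23, 11.19 and 11.11 in non-fibrillar collagen and 11.19, 11.32 and 11.32 in Matrigel. Fatty acid synthase, Fasn, was 1.35-fold higher (0.43 ± 0.043 SE, adjusted p = 0.0026). Of 19 measured genes 4 were higher, 0 lower and 15 not called; 8 lay above all 6 other arrays. The median was 0.11 log2 units (0.14 against non-fibrillar collagen and 0.040 against Matrigel). Without Matrigel 7 were higher and 0 lower (2.71% and 3.69% of all genes). Besides Fasn these were the lipogenic regulator Srebf1 (0.29 ± 0.038 SE, adjusted p = 0.0073), the acetyl-CoA carboxylase Acaca (0.23 ± 0.042 SE, adjusted p = 0.023) and the elongase Elovl6 (0.20 ± 0.031 SE, adjusted p = 0.013). The 3 were nearer to Matrigel, at 0.15, 0.17 and 0.15 against it and 0.43, 0.30 and 0.26 against non-fibrillar collagen. They were not called against Matrigel alone (limma adjusted p = 0.0937, 0.0916 and 0.0568). In that comparison 1 of the 19 genes was called higher and 1 lower (1.45% and 2.37% of all genes).

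Enzymes upstream in the pathway were not called: the citrate-cleaving Acly was at 0.05 and the NADPH-producing Me1 at 0.01 (adjusted p = 0.532 and 0.915). The desaturases Scd1 and Scd2 were at 0.15 and 0.16 (adjusted p = 0.0909 and 0.0919). Of 16 genes of cholesterol synthesis and uptake limma called 0 (3 at an unadjusted p of 0.05), and of 14 LXR targets only the cholesterol exporter Abca1, which overlapped another group. Without Matrigel 0 of the 16 cholesterol genes were called, while 6 of the 14 LXR targets were higher and 0 lower. Over all genes these shares were 2.71% and 3.69%. Elovl6 lost its call without fibrillar replicate 3 (0.0568) and Acaca without any 1 fibrillar array, non-fibrillar replicate 2 or 3 or Matrigel replicate 3 (up to 0.0886).

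Some basement membrane genes were also higher. Of 19 measured, 5 were higher, 0 lower and 14 not called, with a median of 0.099 log2 units. Without Matrigel 5 were higher, and against Matrigel alone 2 were (2.71% and 1.45% of all genes). The laminin chain Lama5 was at 9.92, 9.83 and 9.94, 9.46, 9.45 and 9.40 and 9.55, 9.58 and 9.61 in the fibrillar gel, non-fibrillar collagen and Matrigel (0.39 ± 0.038 SE, adjusted p = 0.0026), without overlap. The laminin chain Lamc1 (0.25 ± 0.045 SE, adjusted p = 0.024) also lay beyond all others; it lost its call without any 1 fibrillar array or non-fibrillar replicate 2 or 3 (up to 0.0784). The other calls were not particular to the fibrillar gel by the rule: Lamb2 was 0.54 against non-fibrillar collagen and -0.01 against Matrigel, perlecan, Hspg2, 0.51 against non-fibrillar collagen and 0.13 against Matrigel, and Lama3 0.45 against non-fibrillar collagen and 0.01 against Matrigel. Collagen IV chains, the scaffold of basement membranes, were not called (Col4a1 0.07, Col4a2 0.06).

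Receptors for the matrix moved singly. Limma called 3 of 24 integrins and collagen receptors higher and 1, Sdc1, lower. Itgb4, one chain of the laminin receptor of hemidesmosomes, was higher (0.35 ± 0.055 SE, adjusted p = 0.014), as was Itgav, which binds fibronectin and latent TGF-beta (0.23 ± 0.041 SE, adjusted p = 0.022); Itga3 was called but overlapped non-fibrillar collagen. Itgb4 lost its call without any 1 fibrillar array (up to 0.0567) and Itgav without fibrillar replicate 2 or 3 (up to 0.0919). The collagen receptors were not called: Itga1 was at 0.03, Ddr1 at 0.08 and Ddr2 at 0.06. Itga2, a collagen-binding alpha chain, had a difference of 0.01, and its fibrillar arrays, at 7.20, 7.20 and 7.15, lay between non-fibrillar collagen at 7.89, 7.89 and 7.78 and Matrigel at 6.44, 6.59 and 6.48.

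Among secreted matrix proteins and proteases single genes were called members. Of 22 matricellular and elastic fibre genes 3 lay above all 6 other arrays and 2 of these were called. Over all genes these shares were 2.99% and 0.747%. Of 22 matricellular and elastic fibre genes the latent TGF-beta binding proteins Ltbp4 (0.30 ± 0.043 SE, adjusted p = 0.01) and Ltbp3 (0.20 ± 0.033 SE, adjusted p = 0.016) were higher and 0 were lower. Ltbp4 was at 7.75, 7.56 and 7.67 against 7.32 to 7.37 on the 6 other arrays. Of 24 genes of fibrillar collagens and their processing limma called 0 (4 at an unadjusted p of 0.05), with Col1a1 at 0.02 and Col3a1 at 0.03. Without Matrigel 5 of the 24 were higher and 0 lower (2.71% and 3.69% of all genes). Among 27 proteases and inhibitors the membrane protease Mmp14, which cleaves collagen I, was higher (0.25 ± 0.044 SE, adjusted p = 0.02), and Serpinb2, an inhibitor of plasminogen activators, lower (-0.59 ± 0.115 SE, adjusted p = 0.031). Both lost the call without any 1 fibrillar array, and Serpinb2 also without non-fibrillar replicate 1 or 2 or Matrigel replicate 2, with adjusted p up to 0.0863 and 0.117, as did Ltbp3 without fibrillar replicate 1 or 3 (0.071). Without Matrigel Ltbp3 was called (0.0308), but not with a replicate block (0.0633). Plaur was also called higher (0.28 ± 0.060 SE, adjusted p = 0.039). It overlapped non-fibrillar collagen and was not called without Matrigel (0.79).

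Some genes of mitochondrial energy production were slightly lower. Limma called 6 of 28 oxidative phosphorylation genes lower and 0 higher. The median was -0.12 log2 units (-0.16 against non-fibrillar collagen and -0.052 against Matrigel). In the fit of 9 arrays 14 were lower against non-fibrillar collagen and only 1 against Matrigel (5.33% and 2.37% of all genes). Without Matrigel 12 were lower (3.69% of all genes), or 7 with a replicate block on the collagen arrays. The NADH dehydrogenase subunit Ndufb8 was at 9.56, 9.41 and 9.55, 9.81, 9.90 and 9.77 and 9.79, 9.74 and 9.75 (-0.28 ± 0.046 SE, adjusted p = 0.015), below all 6 others. Ndufa1 (-0.29), Ndufb5 (-0.23), the cytochrome bc complex subunit Uqcrc1 (-0.16) and the cytochrome oxidase subunit Cox6c (-0.16) also fell and met the rule. Against Matrigel alone these were not called (limma adjusted p = 0.0958, 0.0779, 0.187 and 0.0790). Ndufb8 lost its call without fibrillar replicate 2 (0.0545), and Cox6c and Uqcrc1 whichever array was left out (up to 0.12 and 0.157). Ndufa1 lost it without any 1 fibrillar array or non-fibrillar replicate 2 (up to 0.0787). Ndufb5 lost it in these refits and without non-fibrillar replicate 3 or Matrigel replicate 3 (up to 0.093). Quantile normalization again ended the calls of Ndufb5 and Uqcrc1, and centring on array medians that of Uqcrc1. Without Matrigel a replicate block ended the calls of Ndufb8 (0.0293 without the block, 0.0607 with it), Cox6c (0.0429, 0.0701) and Uqcrc1 (0.041, 0.0734).

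Mitosis and DNA replication genes were not particular to the fibrillar gel by the rule. Limma called 0 of 28 mitosis genes (4 at an unadjusted p of 0.05) and 1 of 29 genes of DNA replication, Slbp, and 0 of either list lay beyond all 6 other arrays. Their fibrillar values lay between the others: the median was -0.11 for mitosis and -0.19 for DNA replication against non-fibrillar collagen, and 0.23 and 0.13 against Matrigel. In the fit of 9 arrays 5 mitosis and 16 DNA replication genes were lower against non-fibrillar collagen (5.33% of all genes). Against Matrigel 8 and 6 were higher (1.45%). Non-fibrillar collagen was called above Matrigel in 23 and 26. A contrast with the mean of both can therefore be small where the fibrillar gel differs from each. Without Matrigel 3 of the 28 mitosis and 11 of the 29 DNA replication genes were lower and 0 higher. Over all genes 3.69% were lower and 2.71% higher. The G1 kinase Cdk6 was higher (0.16 ± 0.034 SE, adjusted p = 0.038) but lost its call whichever array was left out (up to 0.116) and without Matrigel (0.0563). It was also not called after centring on array medians. Limma called 0 of 23 hypoxia genes, 15 cytosolic ribosomal proteins, 18 Notch pathway and 18 mesenchymal genes, with 0, 2, 4 and 2 at an unadjusted p of 0.05. Without Matrigel 1 hypoxia gene and 1 ribosomal protein gene were lower and 1 Notch pathway gene higher. Of the mesenchymal genes 3 were then higher and 1 lower. Among single regulators Erbb2, the growth factor receptor HER2 (0.21 ± 0.037 SE, adjusted p = 0.019), and the AP-1 component Fosl1 (0.25 ± 0.038 SE, adjusted p = 0.012) were higher and Egr1, an immediate early factor (-0.28 ± 0.062 SE, adjusted p = 0.043), lower. Erbb2 lost its call without any 1 fibrillar array (up to 0.0667), and Egr1 in 8 of 9 refits without 1 array, all but that without non-fibrillar replicate 2 (up to 0.15). Egr1 also lost it after quantile normalization again and after centring on array medians. Other single members were higher Cad, which starts pyrimidine synthesis (0.21), the amino acid transporter Slc7a5 (0.25), the Wnt modulator Dkk3 (0.19) and the semaphorin receptor Nrp2 (0.21), and lower Atg5, needed for autophagy (-0.27), and the chaperone Dnajb9 (-0.22), each losing its call in 2 to 9 refits without 1 array. Without Matrigel, Cad, Slc7a5, Dkk3 and Dnajb9 were not called either (adjusted p = 0.0557, 0.108, 0.187 and 0.151), while with a replicate block Slc7a5 was (0.043). Atg5 and Dnajb9 also lost the call after quantile normalization again.

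**Figure D4:**
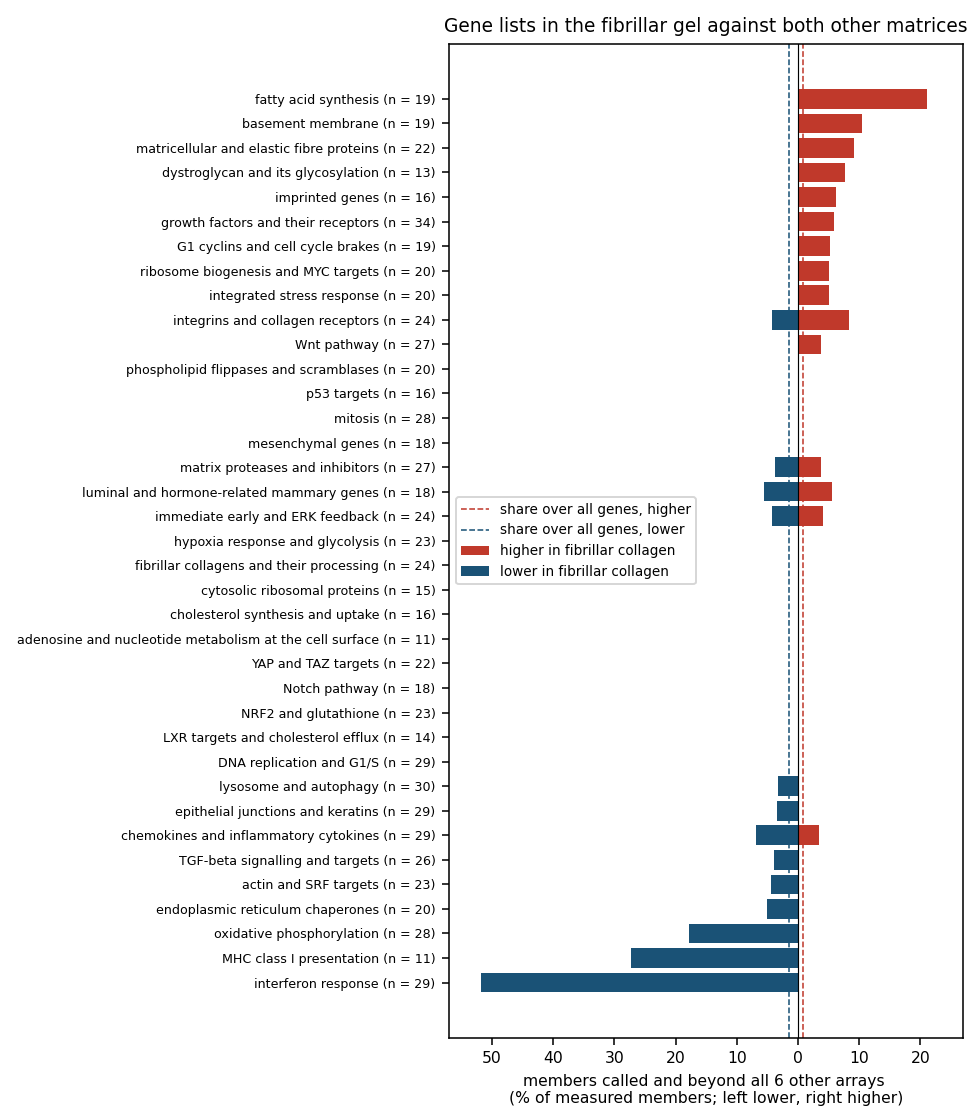
Share of measured members of each gene list that were called and lay beyond all 6 other arrays, lower to the left and higher to the right, in percent; n is the number measured and dashed lines give the share over all genes (0.747% higher, 1.45% lower). The interferon response has the longest bar, with 15 of 29 lower, and fatty acid synthesis the longest on the higher side, with 4 of 19; lists with 1 to 3 such genes rest on single genes.

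The higher and lower members also differed in gene span, which the rule did not use. The gene span in the RefSeq table had a median of 32.1 kb in the 149 higher genes, 13.2 kb in the 289 lower genes and 17.7 kb in all genes. Among genes with a mean of at least 7 log2 units the medians were 45.1, 13 and 24.2 kb. In the shortest quartile of those genes 11 were called higher members and 101 lower members, and in the longest quartile 53 and 24. The median difference over each quartile rose from -0.048 to 0.010 log2 units. Against non-fibrillar collagen it went from -0.074 to 0.038, and against Matrigel from -0.026 to -0.020. Non-fibrillar collagen minus Matrigel, which uses no fibrillar array, went from 0.0495 to -0.0506. A trend with span was therefore not particular to the fibrillar gel. The part of gene span, or of RNA quality, in the results was not tested.

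**Figure D5:**
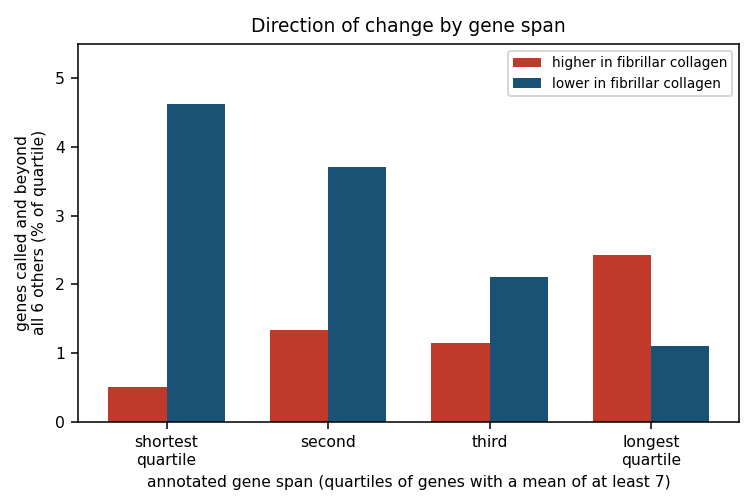
Percent of genes that were called and lay beyond all 6 other arrays, by quartile of annotated gene span among genes with a mean of at least 7 log2 units; red bars are higher and blue bars lower in fibrillar collagen. The lower share falls from 4.63% in the shortest to 1.1% in the longest quartile, and the higher share goes from 0.504% to 2.43%.

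Some lower members lay next to each other on chromosomes: 27 of the 289 called lower members had another as neighbour among measured genes. Of the 149 called higher members 4 did; such counts grow with the length of a list and were not compared. The runs of 3 were Gbp7, Gbp3 and Gbp2b, then Ifi203, Ifi202b and Ifi205, and Ifit2, Ifit3 and Ifit3b, each a cluster of related interferon-induced genes; Rsad2 and Cmpk2, a nucleotide kinase, formed a pair. The higher pairs were Eppk1 with Plec, genes of the plakin family, and Mfge8, a milk fat globule protein, with Abhd2. Related copies in a cluster can share probe sequence, so these neighbours are not independent measurements.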

How the data were processed

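The authors deposited log2 values for probe sets, for which the submitters' processing notes name RMA and Affymetrix Power Tools. Versions, settings and a joint normalization of all 9 arrays are not given in the sources used. RMA pulls arrays towards one distribution. Of 35512 probe sets, 21789 had 1 gene symbol in the platform annotation, 1621 several and 12102 were unlisted; the probe set with the highest mean was used per gene, which left 19938 genes with no filter on dim ones. The array number limits precision; Pearson's r across genes was 0.9942 to 0.9963 within groups.

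Limma 3.58.1 in R 4.3.3 (lmFit, eBayes) fitted a mean per group on all 9 arrays, without a block for replicate number. The contrast was tested two-sided and adjusted over all genes by Benjamini-Hochberg. Folds are back-transformed log2 differences. The code was tested on simulated data. Members and gene lists (840 of 916 entries measured) were chosen with earlier results of these data known. Named genes were, among called members without predicted models, the 12 largest differences and 8 widest gaps per direction, the 3 smallest p and up to 8 called members of each list described, and the 2 nearest the limit per side; other names were chosen after their values were seen.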

Additional observations from a re-analysis of the deposited data

How the results depend on the processing

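The total counts of calls, of genes beyond all 6 other arrays and of genes that were both were 581, 1340 and 438. These totals stayed within 1.5 times with other scaling, averaged probe sets, array weights and a trended robust prior. The split by direction moved: quantile normalization again took genes that were both from 149 higher and 289 lower to 185 and 180. Restricting to genes with a mean of at least 6 or 7 gave 955 or 1070 calls. Without the Matrigel arrays they were 1277, 5024 and 1277. With both other groups pooled as 1, so that their difference counts as spread, 39 genes were called and met the rule. Leaving out 1 array gave 150 to 364 calls, 1456 to 2526 genes beyond the others and 133 to 298 that were both. Stricter rules gave 90 calls at an adjusted p of 0.01 (73 that met the rule), 149 against each other group and 41 with a size of 0.5; a margin of 0.1 or 0.2 left 215 or 42 genes beyond the others. Arrays with the same replicate number deviated together between the collagens (correlations of their deviations 0.221, 0.143 and 0.242). With Matrigel the correlations were 0.253, 0.103 and 0.0968 for fibrillar and 0.125, 0.0449 and 0.135 for non-fibrillar collagen; each array correlated best with its own number in all 18 array and group pairs. The numbers were therefore taken to pair the collagen arrays. Whether they pair all 9 is undecided: 2 pairs with Matrigel were under 0.1, yet the own-number matches include Matrigel. The main fit has no block, so its calls leave out any pairing. With replicate number as a block on 9 arrays 611 genes were called, 472 of them among the 581, and 416 met the rule; Erap1, Cox6c, Uqcrc1, Cdk6, Egr1, Atg5, Asns, Dsp and Gabarapl1 moved above the threshold (adjusted p = 0.0502 to 0.0669). On the collagen arrays alone the block, chosen after seeing the data, gave 1285 calls, 970 of them shared with the 1277 without it, and 1227 that met the rule; of named genes it ended the calls of Bmp1, Cox6c, Ltbp3, Ndufb8, Prrx1, Psmb10, Rrp9 and Uqcrc1 and added Egr1, Kdr, Nqo1, Rsad2, S100a4, Slc7a5 and Utrn. Of 78 named genes that were called, 15 were called under every alternative and 33 whichever array was left out. Quantile normalization again ended the calls of Atg5, Ccnd1, Dnajb9, Egr1, Erap1, Gabarapl1, Ndufb5 and Uqcrc1. Centring on array medians ended those of Asns, Ccnd1, Cdk6, Egr1, Gabarapl1, Spry2 and Uqcrc1. Without Matrigel the sign reversed for 5 of the 78: Asns (-0.047), Ccnd1 (-0.075), Gabarapl1 (0.048), Krt7 (-0.30) and Selenop (0.064). Tnc, not called with all arrays, was called with the opposite sign (-0.33); listed genes called in neither fit are left out here. The cause was not tested for any of these changes beyond the smaller number of genes or arrays.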

Other observations

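Beyond the lists, gene families chosen after their values were seen moved in part. Over all genes limma called 1.88% lower and 1.04% higher. Of 77 mitochondrial ribosomal proteins 12 were called lower and 0 higher, with a median of -0.13 log2 units (-0.21 against non-fibrillar collagen and -0.059 against Matrigel). Of 43 NADH dehydrogenase subunits 12 were lower and 0 higher, with a median of -0.15. Of 24 serpins of clade B 5 were lower and 0 higher. Of 13 LSm proteins, which take part in RNA splicing and decay, 4 were lower.

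Pooling both other matrices left 12 higher and 27 lower genes. The higher ones were Large2, St3gal4, Ddx41, Fasn, Lama5, Sgk2, Pde1b, Sh3pxd2a, Ltbp4, Flt1, Fosl1 and Pitpnm3. Among the lower ones, 6 were in the interferon response list. Outside that list were Ifi202b, Rtp4 and Gbp2b, described above as interferon-induced, and Samd9l, Irgm1, Ddx60 and Oas1b. Others were the secreted protease inhibitor Slpi, the glutathione peroxidase Gpx1, the DNA polymerase Polb and the RNA receptor Tlr3.

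The same rule applied to the other groups gave 3154 genes for non-fibrillar collagen and 2245 for Matrigel, against 1340 for fibrillar collagen.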
